A study of Octopus bimaculoides with 95 samples.

Results

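VLPep3 is 1 of 18 sequences that the expression tables of an octopus nervous system survey list under a name of their own; the other entries are gene identifiers and spike-in controls. It is 1 of 17545 genes in the main table, and its row was followed by name through both deposited tables. The survey took RNA from tissues and single neurons of Octopus bimaculoides, the California two-spot octopus, and asked which genes each part of the nervous system uses. No treatment or genotype was compared, the labels give no age, and they show a sex only through the tissue (male and female gonad, hectocotylus). The main table, named after a 96-well plate, holds 85 libraries: 51 of 21 neural tissues and 34 of 25 non-neural tissues. The neural tissues with 3 libraries each were the stellate ganglion, the arm cord proximal to the brachial crown, the deep medulla and the plexiform periphery of the optic lobe, 5 subdivisions of the vertical lobe (medial, mediolateral left and right, lateral left and right), and the superior frontal, subvertical, anterior superior buccal, inferior frontal, dorsal basal and remaining basal and subfrontal lobes. With the 5 subdivisions counted as 1 vertical lobe, these are 11 regions and 45 libraries. The olfactory lobe, the inferior buccal ganglion, the arm cord near its tip and the anterior, middle and posterior subesophageal lobes had 1 library each. A second table holds 10 libraries: the whole vertical lobe in 2, the medial superior frontal lobe, the stellate ganglion and the brachial ganglion in 1 each, and 5 single neurons. The labels do not say which of the neural libraries came from separate animals. The p-values below therefore measure the spread between libraries or, for neural against non-neural tissues, between tissue means.

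The supraesophageal lobes of the octopus brain serve learning and the planning of movement. The vertical lobe is the best known of them: a very large population of small amacrine neurons receives fibres from the superior frontal lobe and passes them to far fewer large efferent neurons, and the lobe is needed for visual and tactile memory. The subvertical lobe carries its output, the inferior frontal and superior buccal lobes deal with touch, taste and feeding, the basal lobes with higher motor control, the optic lobes with vision, the subesophageal lobes with motor output, and the stellate ganglia with the mantle. Neuropeptides are cut from longer precursors and released by nerve and gland cells, and 1 precursor transcript can be very abundant in a small set of neurons. The files give VLPep3 a name and no annotation, so neither its precursor nor its function is described here.

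Values are in TPM, a read count corrected for transcript length and set to a fixed sum per library; spike-in rows were dropped and each column was rescaled to that sum. Because TPM of 1 gene move in whole steps, the number of reads behind each value was recovered. A library carried 31944 to 12727174 recovered reads, and 24 of the 51 neural and 23 of the 34 non-neural libraries carried at least 1000000. This depth counts 1 row per gene and only the 15413 of 17545 plate genes whose reads could be recovered. Those genes held from 35.9% of the TPM of a plate library (mantle) to 96.1% (anterior salivary gland 1), so depth is understated unevenly. Depth bears on VLPep3 at the low end, since 3 reads, the floor used here for a listed 0, were worth 1.38 TPM in the deepest library at 0 and 295 TPM in the shallowest. Of the plate libraries, 9 had an overall profile closer to the other class (neural or non-neural) than to their own; 3 of them lie in the 11 regions, namely mediolateral-right vertical lobe 1, proximal arm cord 3 and stellate ganglion 1, whose nearest library was skin.

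VLPep3 was higher in nervous tissue than elsewhere. It was above 0 in 28 of 51 neural libraries and in 19 of 34 non-neural libraries, but the levels behind these counts were far apart. Summed over libraries, 10557 VLPep3 reads lay in neural tissues and 75 in non-neural tissues, which is 467 TPM in neural tissues (95% Poisson interval 458 to 476, counting error only) and 2.58 TPM in non-neural tissues (2.03 to 3.23). The 13 tissues with the highest mean were all neural, and the first non-neural tissue, the buccal muscle, came in position 14 with 38.1 TPM from 2 reads. The 8 other neural tissues came below it, mixed with the non-neural ones. They were the 5 vertical lobe subdivisions, the superior frontal lobe, the stellate ganglion and the middle subesophageal lobe. Over 46 tissue means, the neural tissues were higher by 3.47 ± 0.76 on the log2(TPM + 1) scale (SE, 95% interval 1.94 to 5.00, limma, Benjamini-Hochberg adjusted p = 0.000322, 21 neural and 25 non-neural tissues). In that comparison 25.4% of 14469 genes were called at an adjusted p under 0.05 and a difference of at least 1, in either direction, and the median difference of all genes was 0.19. Among libraries with at least 1000000 reads the difference was 4.89 ± 0.90, and 30.7% of genes were called. In bulk tissue, fewer cells that make a transcript and less of it per cell cannot be told apart.

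More than 3 VLPep3 reads were found in 22 of 51 neural libraries and in 5 of 34 non-neural libraries. These 5 were the optic gland with 16 reads and 12.5 TPM, retina 1 with 12 reads and 82.5 TPM, the skin with 10 reads and 4.61 TPM, chromatophores 2 with 7 reads and 8.59 TPM, and posterior salivary gland 2 with 5 reads and 2.08 TPM. The other 2 retina libraries were at 0. The optic gland, an endocrine gland on the optic stalk that controls sexual maturation, had a subvertical lobe library as its nearest neighbour in overall profile and was among the 9 libraries closer to the other class; its part in this value was not tested.

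The regions of the nervous system differed widely from each other, and so did libraries of 1 region. The 3 dorsal basal libraries stood at 1462, 142 and 435 TPM, and all were high. The superior buccal libraries stood at 0, 560 and 12795 TPM, so their mean of 4452 ± 7231 TPM (SD, n = 3) was carried by a single library in which VLPep3 ranked 9 among 6778 genes above 0; without it the mean was 280.2 TPM. The subvertical libraries stood at 309, 630 and 9.06 TPM, the last from 2 reads.

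As in the superior buccal lobe, high libraries and libraries listed at 0 were mixed in 5 regions with lower means. The optic lobe periphery had 0, 492 and 181 TPM, and the optic lobe medulla had 0, 0 and 364 TPM. The inferior frontal lobe had 0, 742 and 69.4 TPM, the remaining basal and subfrontal lobes had 187, 105 and 0 TPM, and the proximal arm cord had 211, 0 and 145 TPM. Each of these 5 regions thus held at least 1 library above 100 TPM and at least 1 at 0. In the libraries at 0, 3 reads were worth 32.2 to 130 TPM, so these zeros do not show an absence of VLPep3.

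The remaining regions had no library above 50 TPM, although several of their zeros lie in shallow libraries. The 15 vertical lobe libraries averaged 3.69 ± 11.2 TPM (SD, n = 15), and 11 of them were at 0. The 4 others were medial 3 at 43.8 TPM from 3 reads, mediolateral-left 3 at 5.82 TPM from 8 reads, mediolateral-left 2 at 3.81 TPM from 2 reads and lateral-right 2 at 1.96 TPM from 3 reads. All libraries of the lateral-left and mediolateral-right subdivisions were at 0, but 3 reads were worth 295 TPM in lateral-left 1, 123 TPM in lateral-right 3 and 92.7 TPM in mediolateral-right 1, so those zeros do not show a low level. The superior frontal lobe had 0, 0 and 27.1 TPM and the stellate ganglion 0.704, 0 and 0 TPM, the value above 0 being a single read in each.

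**Figure D1:**
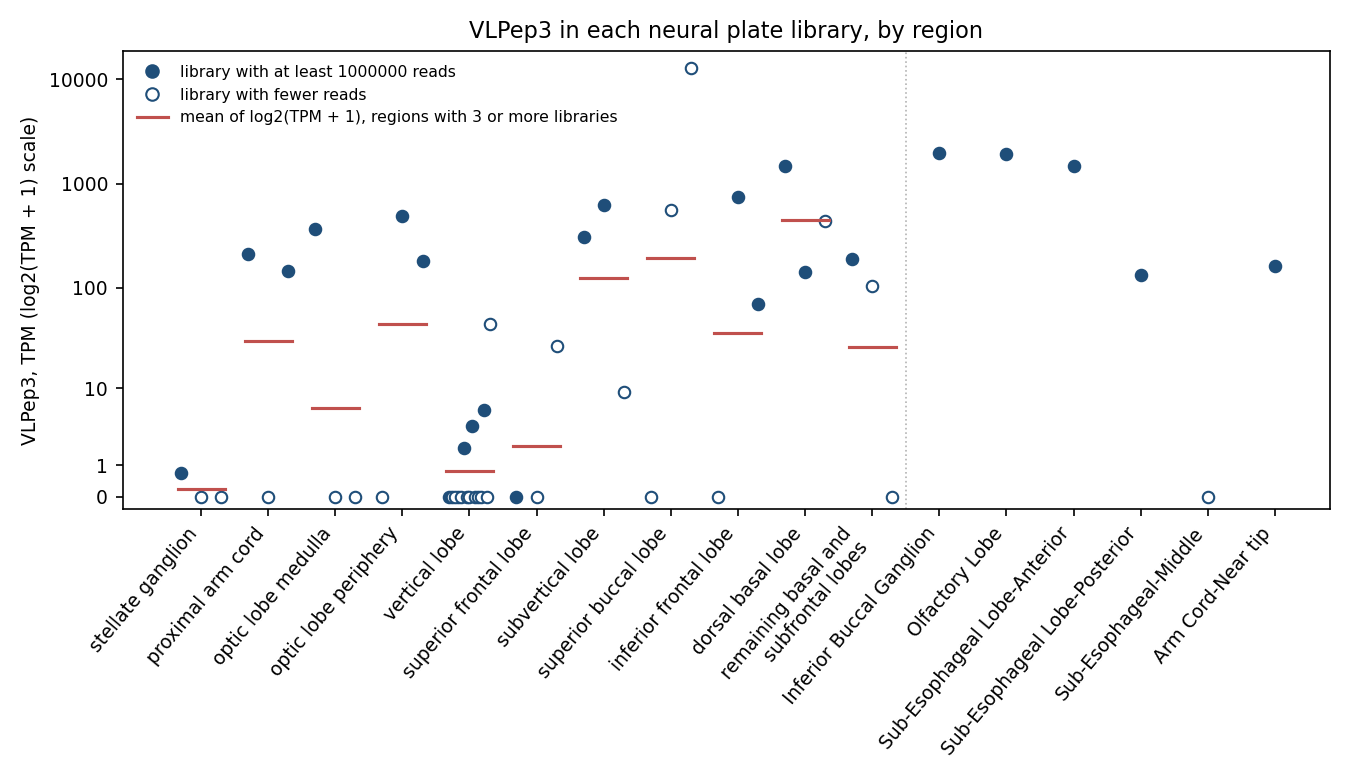
VLPep3 in every neural plate library, as TPM on a log2(TPM + 1) axis, by region; filled points are libraries with at least 1000000 reads, open points those with fewer, red bars the mean of log2(TPM + 1). The vertical lobe, superior frontal lobe and stellate ganglion are listed under 50 TPM in every library, while every other region holds a library above 100 TPM; tissues right of the dotted line have 1 library.

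Ordered by the mean of log2(TPM + 1), the regions ran from the dorsal basal lobe through the superior buccal and subvertical lobes, optic lobe periphery, inferior frontal lobe, proximal arm cord, remaining basal lobes, optic lobe medulla, superior frontal lobe and vertical lobe to the stellate ganglion. No neighbours in this order differed beyond their spread: the libraries of all 10 neighbouring pairs overlapped, and the 10 differences lay between 0.21 and 1.92 on the log2 scale with standard errors of 2.01 or 2.60. Of the 55 pairs of regions, 4 did not overlap. As listed, the dorsal basal lobe lay above the vertical lobe, the superior frontal lobe and the stellate ganglion, and the subvertical lobe lay above the stellate ganglion. Depth does not resolve all of this: 3 reads were worth 295 TPM in lateral-left vertical lobe 1, above dorsal basal lobe 2 at 142 TPM, and 36.2 and 41.8 TPM in stellate ganglion 2 and 3, above subvertical lobe 3 at 9.06 TPM. Between the vertical lobe and the dorsal basal lobe 2.04% of genes did not overlap, and for the other pairs the share was 13.9% (superior frontal and dorsal basal), 11.1% (stellate ganglion and dorsal basal) and 18.3% (stellate ganglion and subvertical).

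Among tissues with 1 library, the inferior buccal ganglion had 1958 TPM (2408 reads, rank 36), the olfactory lobe 1932 TPM and the anterior subesophageal lobe 1488 TPM. The posterior subesophageal lobe had 132 TPM and the middle one 0, where 3 reads were worth 89.0 TPM. The arm cord near the tip, with 164 TPM, lay between the proximal arm cord libraries of 145 and 211 TPM. These tissues have no error, and their order is that of 1 library each.

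Many of the zeros came from shallow libraries. Across the 51 neural libraries log2(TPM + 1) of VLPep3 and log10 of the reads correlated at r = 0.49, and at r = 0.55 over the 36 libraries outside the vertical lobe; VLPep3 and depth are read from the same libraries, so this is a description. Outside the vertical lobe, superior frontal lobe and stellate ganglion, a set of tissues put together after the values were seen, the 8 libraries at 0 carried 82418 to 410188 reads, and 3 reads in them were worth 24.9 to 130 TPM. All 17 libraries of those tissues with at least 1000000 reads held VLPep3, with 38 to 2408 reads and 69.4 to 1958 TPM. The 5 vertical lobe libraries of that depth held 0 to 8 reads and at most 5.82 TPM, which is 3.10 TPM over their summed reads (95% Poisson interval 1.65 to 5.29). The single superior frontal library of that depth held no VLPep3 read, which allows up to 5.25 TPM, and the single stellate library, the one nearest to skin in profile, held 1 read.

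**Figure D2:**
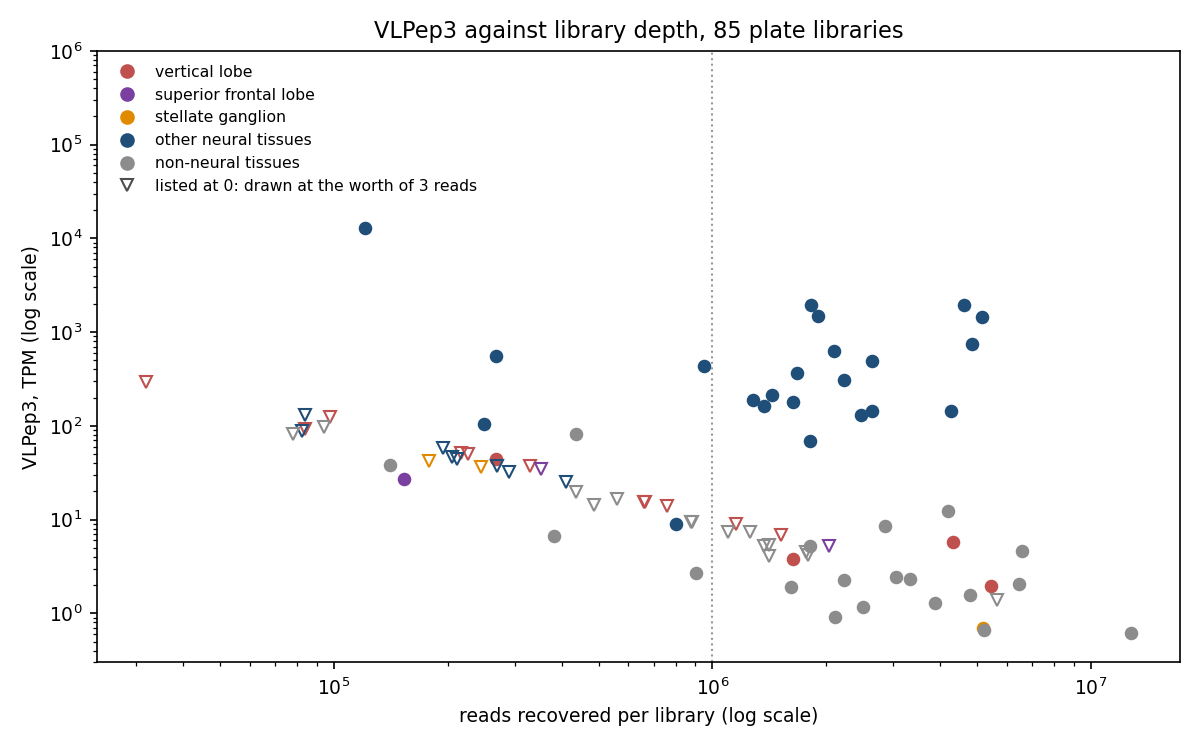
VLPep3 in TPM against the reads recovered per library, both on log axes, for 85 plate libraries; triangles are libraries listed at 0, drawn at the TPM that 3 reads would give. Right of the dotted line at 1000000 reads the tissues drawn in blue lie between 69.4 and 1958 TPM, while the vertical lobe, superior frontal lobe and stellate ganglion lie among the non-neural tissues.

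The level differed across the 11 regions in a limma fit over all genes (F = 3.51, adjusted p = 0.0360, 45 libraries), a test that 7.12% of 13751 genes passed. The call was narrow: it was lost in 15 of the 45 fits that left out 1 library, at adjusted p-values of 0.0503 to 0.0804, and without the 3 libraries closer to the other class (adjusted p = 0.0657). It was also lost with no filter on low genes (adjusted p = 0.0753), with the style of the sample codes, described below, as a term in the fit (F = 2.46, adjusted p = 0.268) and within the ObRNA style (adjusted p = 0.465) and the codes of 4 digits (adjusted p = 0.389). The 15 were dorsal basal lobe 1 and 3, subvertical lobe 1 and 2, superior buccal lobe 2, stellate ganglion 3, medial vertical lobe 1 and 2, lateral-right 1 and 3, lateral-left 2 and 3, mediolateral-left 1 and 2 and mediolateral-right 3. With libraries of at least 1000000 reads, a choice made after the data were seen, F was 18.5 (adjusted p = 0.00287) and 6.65% of genes passed. None of these libraries came from the superior buccal lobe.

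The vertical lobe, set against the 6 other central lobes, was lower in VLPep3 by a wide margin. Its 15 libraries ran to 43.8 TPM with a median of 0, and the 18 libraries of the other lobes ran to 12795 TPM with a median of 123 TPM; the 2 sets overlapped, since 5 of those 18 were at 0. The difference, vertical lobe minus the mean of the 6 lobes, was -5.02 ± 1.11 on the log2(TPM + 1) scale (SE, 95% interval -7.27 to -2.77, limma, adjusted p = 0.00367). In this comparison 4.20% of genes were called. A permutation test over libraries, two-sided with 100000 draws, gave p = 0.00034. It shuffled single libraries without regard to subdivision or sample code. It thus treats the 15 vertical lobe libraries as independent, which the labels do not show. Every fit without 1 library kept the call, with differences of -5.65 to -4.52. With libraries of at least 1000000 reads the difference was -5.58 ± 0.71 (adjusted p = 0.00457, 1.77% of genes called). No superior buccal library reached that depth, so this mean leaves that lobe out. The superior frontal lobe and the remaining basal and subfrontal lobes entered it with 1 library each.

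Sample codes were unevenly spread over this comparison. The sample descriptions carry codes of 5 styles; 9 vertical lobe libraries carry the ObRNA style, 5 the ObA style and 1 a code of 4 digits, while 7 libraries of the other lobes carry the ObRNA style, 1 the ObA style, 8 a code of 4 digits and 2 another style. Among the other lobes, the ObRNA style covers only the subvertical, inferior frontal and superior frontal lobes. The codes of 4 digits cover neither the inferior nor the superior frontal lobe, so the compared lobes changed with the style. In the ObRNA style the vertical lobe had 0 to 43.8 TPM and the other lobes 0 to 742 TPM. The difference within that style was -4.05 ± 1.43 (limma, unadjusted p = 0.0120, adjusted p = 0.478). Within the codes of 4 digits it was -7.47 ± 3.51 (adjusted p = 0.293), resting on 1 vertical lobe library, mediolateral-right 1, listed at 0 with 83976 reads and a profile closer to non-neural tissue; 3 reads in it were worth 92.7 TPM, so this value gives no direction. With the style as a term in the fit it was -3.74 ± 1.75 (unadjusted p = 0.0398, adjusted p = 0.409). The call was lost in each, and the difference stayed negative within the ObRNA style and with the style as a term; the labels do not say what the styles stand for.

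The vertical lobe was next set against the lobes it is wired to. Minus the subvertical lobe it gave -6.16 ± 2.01 (adjusted p = 0.448, 0.0509% of genes called, median difference of all genes -0.31), with 0 to 43.8 TPM in the vertical lobe and 9.06 to 630 TPM in the subvertical lobe. With libraries of at least 1000000 reads, 5 vertical and 2 subvertical, the difference was -7.77 ± 1.01 (adjusted p = 0.0279, 0.0314% of genes called). No difference from the superior frontal lobe, which sends fibres to it, was detected: -0.80 ± 2.01, with an interval of -4.87 to 3.27 that leaves room for a large difference either way (adjusted p = 0.982, 1.12% of genes called). The superior frontal lobe minus the inferior frontal lobe gave -3.62 ± 2.60 (adjusted p = 0.844, 0.211% of genes called), with 0, 0 and 27.1 TPM in the superior frontal lobe, against 0, 742 and 69.4 TPM in the inferior frontal lobe.

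**Figure D3:**
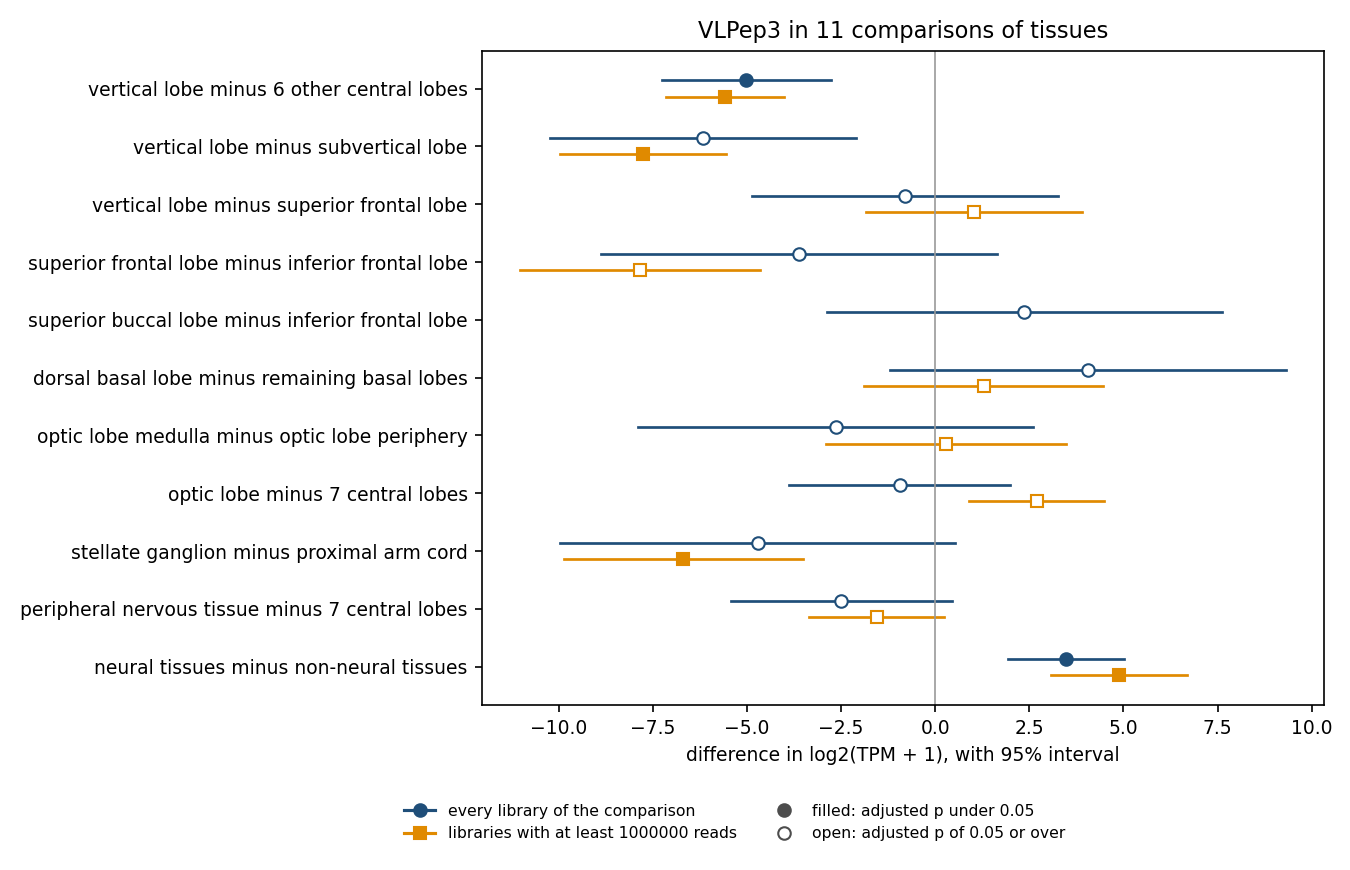
Difference in VLPep3 between tissues on the log2(TPM + 1) scale with 95% intervals for 11 comparisons, first-named tissue minus second. Circles use every library, squares only libraries with at least 1000000 reads, and filled symbols have an adjusted p under 0.05. No superior buccal library enters the squares. The vertical lobe comparison at -5.02 and the neural comparison at 3.47 pass with every library, and those with the subvertical lobe and of the stellate ganglion with the proximal arm cord pass among deeper libraries alone.

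Among the other lobes no paired comparison passed. The superior buccal lobe minus the inferior frontal lobe gave 2.37 ± 2.60 (adjusted p = 0.776, 0.0218% of genes called, median difference of all genes -0.46), and the sign turned without superior buccal lobe 3 (-0.66). The dorsal basal lobe minus the remaining basal and subfrontal lobes gave 4.06 ± 2.60 (adjusted p = 0.770, 0.0291% of genes called). The optic lobe medulla minus its periphery gave -2.65 ± 2.60 (adjusted p = 1.00, 0.116% of genes called), and the 3 optic libraries with at least 1000000 reads, 1 of medulla at 364 TPM and 2 of periphery at 181 and 492 TPM, overlapped. Each interval spanned at least 10 log2 units, so none of these comparisons shows the regions to be alike.

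Outside the central lobes, the optic lobe minus the 7 central lobes gave -0.95 ± 1.45 (adjusted p = 0.984, 1.02% of genes called). Among libraries with at least 1000000 reads, which include none of the superior buccal lobe, the sign turned to 2.70 ± 0.82 and the difference was not called. Peripheral nervous tissue, the stellate ganglion and proximal arm cord together, minus the 7 central lobes gave -2.50 ± 1.45 (adjusted p = 0.452, 3.46% of genes called). Between its 2 parts, the stellate ganglion minus the proximal arm cord gave -4.72 ± 2.60 (interval -9.97 to 0.54, adjusted p = 1.00, 0.167% of genes called). Among libraries with at least 1000000 reads that difference was -6.69 ± 1.45 (adjusted p = 0.0302, 2.91% of genes called), but it rests on stellate ganglion 1, at 0.704 TPM, and on proximal arm cord 1 and 3, at 211 and 145 TPM. Stellate ganglion 1 and proximal arm cord 3 are among the libraries closer to the other class; with every library of that kind left out of the full set the difference was -3.86 ± 3.29.

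The second table, scaled separately, was read by rank within each library. VLPep3 ranked 194 of 14076 genes above 0 in whole vertical lobe 1 (718 TPM, 2019 reads) and 82 of 13261 in whole vertical lobe 2 (1357 TPM, 2535 reads), which is the top 1.38% and 0.618%. The 3 deep vertical lobe subdivisions of the plate with any VLPep3 read placed it at 56.1%, 68.9% and 75.7%. It ranked at 65.6% in the medial superior frontal lobe (2.37 TPM, 8 reads) and at 65.0% in the stellate ganglion (1.02 TPM, 5 reads), while on the plate the deep superior frontal library was at 0 and the deep stellate library ranked at 86.8%. The brachial ganglion had 335 TPM from 876 reads and a rank of 3.99%, against 6.95% and 9.26% in the deep proximal arm cord libraries.

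**Figure D4:**
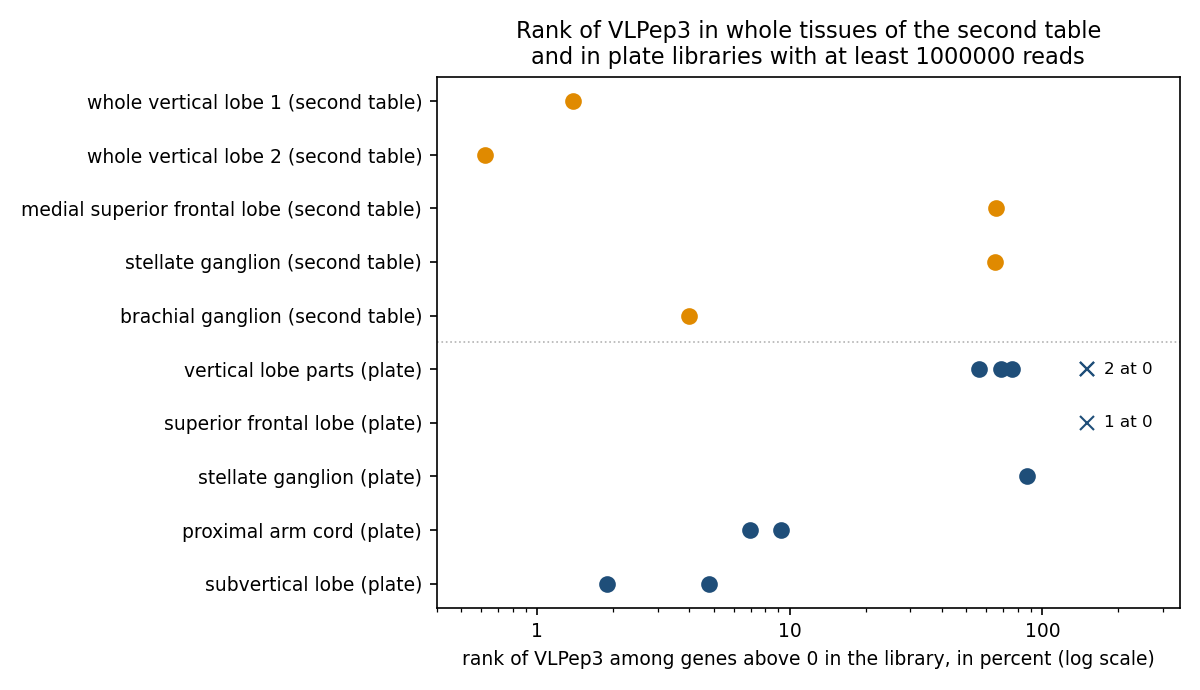
Rank of VLPep3 among genes above 0, as a percentage on a log axis, in 5 whole-tissue libraries of the second table (orange) and in plate libraries with at least 1000000 reads (blue); crosses are libraries at 0. Both whole vertical lobe libraries lie at the highly expressed end, at 1.38% and 0.618%, and the vertical lobe subdivisions of the plate at 56.1% and beyond.

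The whole vertical lobe libraries also differed from the subdivisions in other genes. Of the genes called in the plate comparison of the vertical lobe with the 6 other central lobes, 292 higher and 285 lower ones are listed in the second table. In the whole lobe libraries the higher genes had a median rank at the top 22.5% and 22.7% of all genes and the lower genes at 27.0% and 25.5%. In the 5 deep vertical lobe subdivisions these ranks were 14.8% for the higher and 40.3% for the lower genes. In the 8 deep libraries of the other central lobes, none of them from the superior buccal lobe, they were 28.4% and 20.6%. The whole lobe libraries lay outside the range of the 5 subdivisions (at most 16.2% for the higher and at least 33.2% for the lower genes) and inside that of the 8 libraries of the other lobes (19.0% to 38.3% and 15.4% to 29.5%). The medial superior frontal lobe of the second table, at 17.7% and 32.6%, lay nearer to the subdivisions than the whole lobe libraries did. The deep superior frontal library of the plate stood at 31.3% and 25.7%. In the second table the stellate ganglion stood at 32.7% and 27.5% and the brachial ganglion at 34.7% and 25.2%. The cause was not tested. The plate's own values chose these genes, so the plate figures describe the choice; whether the whole lobe samples held tissue of neighbouring lobes was not tested.

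Single neurons gave little. VLPep3 was at 0 in the large efferent neuron and the amacrine neuron of the vertical lobe, where 3 reads were worth 12.1 and 22.4 TPM, in a plexiform neuron of the optic lobe periphery and in a stellate ganglion neuron. A neuron of the optic lobe medulla had 48.7 TPM from 2 reads. With 1 cell of each kind, these values describe those cells.

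Among the 17 other named sequences, 8 were above 0 on the plate and were tested. In the vertical lobe comparison, where 4.20% of all genes were called, 1 of the 8 passed: GNRH, the name of gonadotropin-releasing hormone, was lower, with a difference of -3.28 (adjusted p = 0.000529), with a median of 0 and a mean of 1.07 TPM in the vertical lobe, where 1 library at 16.1 TPM makes up the mean, and a median of 13.2 and a mean of 59.9 TPM in the 6 other lobes. In the comparison of neural with non-neural tissues, where 25.4% of all genes were called and 2888 of those 3681 were higher, 5 of the 8 passed, all higher in neural tissue: Betsin (2.56), IRELamide2 (1.36), GNRH (2.18), Sp38 (2.76) and Sp12 (3.30). IRELamide1, APGW and Insulin1 did not pass either comparison. The 9 sequences at 0 in every plate library included the 3 named AchBP1, AchBP2 and AchBP3, and NOS.

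The genes whose pattern was most like that of VLPep3 were sought by Pearson's r of log2(TPM + 1) over the 51 neural libraries among 13966 genes at 1 TPM in at least 3 of them. The first was LOC106873172, annotated as a long noncoding RNA in RefSeq, at r = 0.77, followed by the protein-coding LOC106873697 (0.73), LOC106872255 (0.73), LOC106875997 (0.72) and LOC106869523 (0.72); the tables give them no further name. LOC106873697 held its likeness best in the 24 neural libraries with at least 1000000 reads (r = 0.86, against 0.76 for LOC106873172 and 0.53 for LOC106872255). Betsin at 0.67 and GNRH at 0.65 were the nearest named sequences, in positions 20 and 30, and IRELamide1 (-0.08) and Sp12 (-0.02) were near 0 over the 51 libraries. In the 24 deeper libraries IRELamide1 was at -0.38 and Sp12 at 0.41. The libraries differ in depth, which moves low genes together, and the values are given without a test.

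The most similar genes were lower by median in the vertical lobe than in the 6 other central lobes. They were chosen for likeness to VLPep3 in these same libraries, so this follows from the choice. In the dorsal basal lobe LOC106873697 had 283, 35.9 and 135 TPM, the same order of libraries as VLPep3 at 1462, 142 and 435 TPM. Its highest neural value, 7826 TPM, lay in the anterior subesophageal lobe. LOC106873172 had a median of 0 TPM in the vertical lobe, with 1 library at 170 TPM, and a median of 29.0 TPM in the 6 other central lobes, with 1 library at 1133 TPM. LOC106873697 had medians of 0 TPM in the vertical lobe and 47.6 TPM in the others. In dorsal basal lobe 1, with VLPep3 at 1462 TPM, LOC106875997 and LOC106869523 reached their highest neural values, 119 and 38.3 TPM. In the whole vertical lobe libraries VLPep3 stood at 718 and 1357 TPM. There LOC106872255 stood at 39.2 and 17.8 TPM, LOC106875997 at 54.7 and 19.4 TPM and LOC106869523 at 12.5 and 7.11 TPM, all above their plate vertical lobe means of 6.14, 1.84 and 1.18 TPM. LOC106873172 stood at 5.83 and 2.31 TPM and LOC106873697 at 0.369 and 1.67 TPM. Those values lay below the plate vertical lobe means of 16.2 and 9.51 TPM but above the plate medians of 0 TPM. The first of these means includes the library at 170 TPM. The tables were scaled separately. Of the named sequences, Betsin stood at 118 and 131 TPM and GNRH at 215 and 1494 TPM in the whole vertical lobe libraries.

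**Figure D5:**
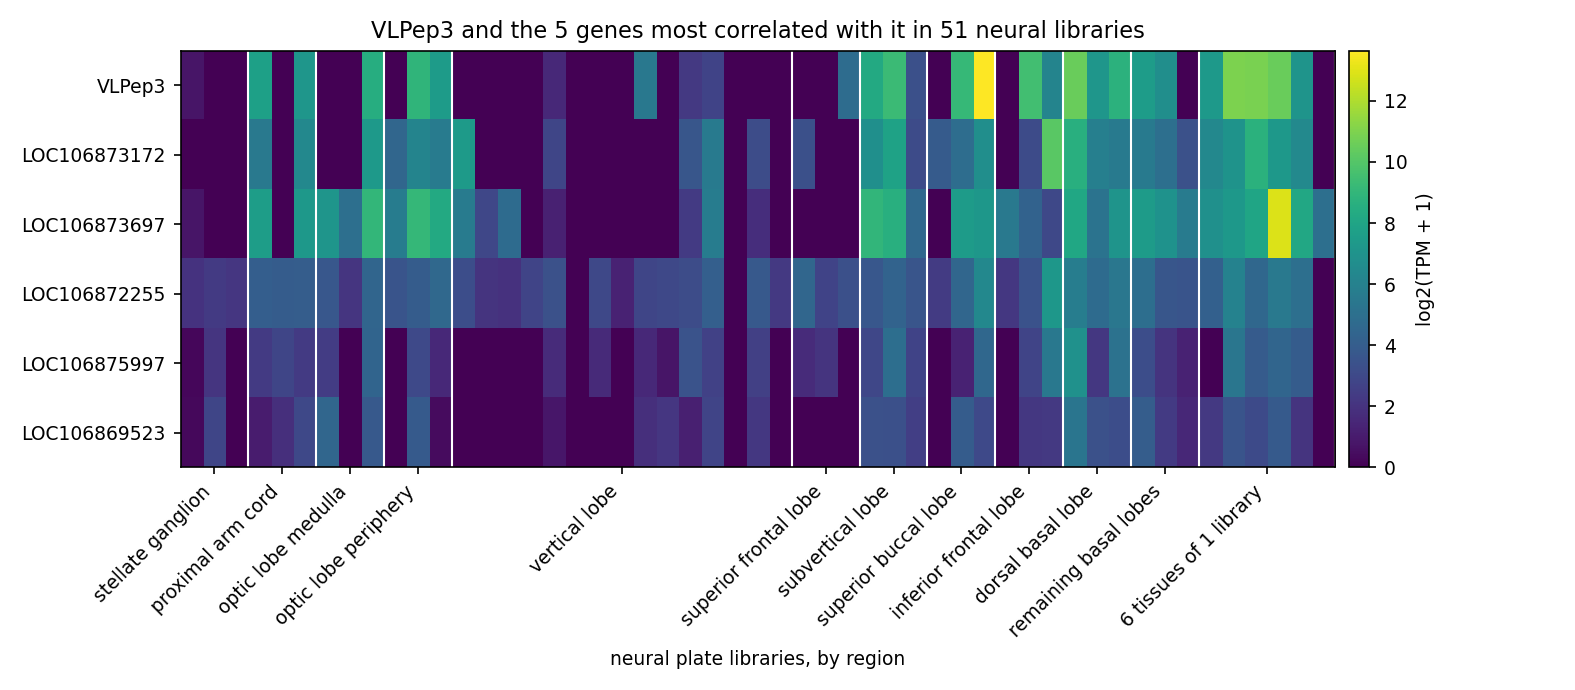
Log2(TPM + 1) of VLPep3 and of the 5 genes with the highest correlation with it (r of 0.72 to 0.77) in 51 neural libraries, 1 column per library, grouped by region between white lines. VLPep3 and most of the other rows are dark in most vertical lobe and stellate libraries and brighter in the dorsal basal and subvertical lobes, while LOC106872255 is above 0 in 48 of the 51 libraries.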

How the data were processed

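The deposited tables hold TPM per transcript, computed by the authors; the submitters' processing notes name Trimmomatic 0.32, STAR 2.3, featureCounts and edgeR 3.14.0 without their roles, and no genome build is named in the labels or headers. There are 26467 rows in the plate table and 26466 in the second. The 92 spike-in rows were dropped, 1 row was kept per gene, and columns were rescaled. Reads were recovered from the steps of the TPM values for 15413 of 17545 genes of the plate table and 13047 of 17544 of the second. A gene was accepted only where its low values were whole within 0.05. The share of whole low values, 100% on the plate and 99.9991% in the second table, follows from that rule and does not test the recovery.

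Genes at 1 TPM in at least 3 libraries were fitted with limma 3.58.1 in R 4.3.3, using a trend of variance on level, after log2(TPM + 1); each tissue had its own mean, and a region is the mean of its tissues. For the neural against non-neural comparison the unit was the tissue mean. A call needs an adjusted p under 0.05 over all genes and a difference of at least 1. Descriptions and figures used Python 3.11.15. The named genes are VLPep3, the other named sequences and the 5 genes most correlated with VLPep3. These choices were made with earlier results of these data known. Scaling, pseudocount, filter, blocks and left-out libraries were varied; 2 alternatives, libraries of at least 1000000 reads and voom on recovered reads, were added after the data were seen.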

Additional observations from a re-analysis of the deposited data

Results flagged for a closer look

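VLPep3 stood above the worth of 3 reads in 5 whole-tissue libraries of the second table, which enter none of the fitted comparisons and are set beside the plate by rank alone. It was at 717.7 TPM and 1357 TPM in both whole vertical lobe libraries, 334.7 TPM in the brachial ganglion, 2.37 TPM in the medial superior frontal lobe and 1.02 TPM in the stellate ganglion. There are no control libraries in that table, so 3 reads, worth 0.611 to 1.61 TPM in these 5 libraries, served as the level to pass.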

How the results depend on the processing

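The calls of the neural tissues (differences of 2.89 to 4.89 on the log2 scale over 12 alternatives, 3.16 to 3.71 without 1 library) kept their direction and side of the threshold. The vertical lobe call held in 15 of 18 alternatives and was lost with the label style as a block (-3.74) and within the ObRNA style (-4.05) and the codes of 4 digits (-7.47). The test over 11 regions was lost with no filter (F = 3.17), without libraries closer to the other class (3.07), with the style block (2.46) and within the ObRNA style (3.85) and the codes of 4 digits (2.57), and ran from 3.01 to 5.27 without 1 library. The vertical lobe minus the subvertical lobe passed when those tissues were fitted alone (-6.16, adjusted p = 0.0290) and with libraries of at least 1000000 reads (-7.77); there the stellate ganglion minus the proximal arm cord passed too (-6.69).

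Signs turned for uncalled differences. With libraries of at least 1000000 reads the vertical minus the superior frontal lobe was 1.02, the optic medulla minus its periphery 0.28 and the optic lobe minus the 7 central lobes 2.70. Without libraries under 200000 reads the vertical minus the superior frontal lobe was 0.86, the superior buccal minus the inferior frontal lobe -3.27 and the optic lobe minus the central lobes 0.041. With voom on recovered reads the vertical minus the superior frontal lobe was 0.34 and the optic lobe minus the central lobes 0.088. Leaving out 1 library gave -1.60 to 0.81 for the vertical minus the superior frontal lobe, -0.66 to 6.16 for the superior buccal minus the inferior frontal lobe and -2.37 to 0.42 for the optic lobe minus the central lobes. The cause was not tested. Where an arm kept 1 library, it was assumed to vary like the others. No superior buccal library reached 1000000 reads, so its comparison with the inferior frontal lobe has no such value. At that depth and within a code style, a mean over lobes and the test over regions used only the regions that had libraries.

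The replicate numbers of the labels gave no sign of pairing: 104 of 315 same-numbered pairs correlated over 0.1, with a median r of -0.015. The codes of the neural plate libraries also carry a letter A, B or C, whose meaning the labels do not give. Pairs of the same letter had a median r of 0.023, with 123 of 315 over 0.1, against -0.019 for different letters. Such values do not show whether libraries came from separate animals. With the replicate number as a block the vertical lobe difference stayed -5.02 (adjusted p = 0.00306) and F was 3.68. Depth limits the low end, since a listed 0 in a neural library allowed 5.25 to 295 TPM.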
